A study of Mus musculus with 20 samples.

Results

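The genes described here are 30 genes of the extracellular matrix and of cell-matrix contact, measured in cultured mouse nephron progenitor cells (NPCs): 8 collagens, 2 laminins, 2 integrin α and 5 integrin β subunits, 3 ADAM proteins, 7 ADAMTS proteases, 2 ADAMTS-like proteins and *Itgb3bp*, which matches the symbol pattern but encodes a nuclear protein and not an integrin. They are all genes with a symbol beginning with Col and a digit, Lama, Lamb, Lamc, Itga, Itgb or Adam and a mean of at least 10 over the 20 libraries, and they stand among 3939 genes with a symbol at that mean and 31130 identifiers in all. Symbols exist only for genes in one of the authors' 7 lists of differences, so the 30 genes were chosen on measured values. Some of these lists hold the same contrast at an adjusted and at an unadjusted p. The table of CTRL high against low CHIR lists 23 of them, and 7 come in only through a comparison of a knockout with CTRL in high CHIR (*Adam11*, *Adam2*, *Adamts7*, *Col6a1*, *Itgb3*, *Itgb3bp* and *Itgb4*). Every listing of a member in a knockout comparison is at the authors' unadjusted p under 0.05. The knockout lists at adjusted p hold 0 members. The lowest mean inside the limit was 25.9 (*Itgb3*), and *Adam4*, with a mean of 4.58, fell outside it. Other collagen, laminin, integrin and ADAM genes were not analysed here.

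The libraries came from NPCs of the kidneys of late-gestation embryos from Cas9-eGFP mice crossed with SWR/J mice, so that every group, CTRL included, carries the Cas9-eGFP genotype and a guide RNA. CTRL cells received sgRNA against GFP, α-catenin KO cells against *Ctnna1*, β-catenin KO cells against *Ctnnb1*, and QCKO cells against *Cdh2*, *Cdh3*, *Cdh4* and *Cdh11* together. After 48 h the cells spent 24 h in 1.25 µM (low) or 5 µM (high) CHIR, an inhibitor of the kinase GSK3β that stabilizes β-catenin and mimics a strong Wnt signal, and transfected mCherry+ cells were sorted for RNA. CTRL and β-catenin KO have 3 libraries in each CHIR concentration, and α-catenin KO and QCKO have 2. A group is a pool of separately edited cells and not a clone. Replicate numbers stand for the date in the sample titles, and the labels do not say which embryos went into a culture, so p-values measure only the spread between these libraries.

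Collagens and laminins are secreted chains that assemble into fibrils and into the sheet-like basement membrane, integrins are paired α and β receptors that hold cells to that matrix, ADAM proteins are membrane-anchored proteases that shed surface proteins, and ADAMTS proteases are secreted and trim matrix proteoglycans and fibrillar proteins. In the developing kidney, NPCs lie as loose mesenchyme around the ureteric tip, and on a Wnt signal they aggregate and turn into an epithelial vesicle with a basement membrane of its own. Type IV collagen and laminin are the main components of that membrane.

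Promoter sequences are shown for the members that led the differences in either direction, for the neighbouring pair *Col4a5* and *Col4a6*, and for every member holding the motif searched. RefSeq promoters on GRCm38.p6 were given for 18 of the 30 members, with 21 start sites. Each line gives the 250 bases before a start, 5′ to 3′ on the strand of the gene. Capitals mark CTTTGA or its reverse complement TCAAAG, one form of the core of binding sites of LEF and TCF, the DNA-binding partners of β-catenin. Other forms, such as CTTTGT, were not searched.
Col9a1: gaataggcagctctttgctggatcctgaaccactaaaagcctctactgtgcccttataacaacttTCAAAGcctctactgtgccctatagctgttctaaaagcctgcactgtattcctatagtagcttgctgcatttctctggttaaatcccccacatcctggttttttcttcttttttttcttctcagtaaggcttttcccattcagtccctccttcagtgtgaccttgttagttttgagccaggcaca
Col18a1: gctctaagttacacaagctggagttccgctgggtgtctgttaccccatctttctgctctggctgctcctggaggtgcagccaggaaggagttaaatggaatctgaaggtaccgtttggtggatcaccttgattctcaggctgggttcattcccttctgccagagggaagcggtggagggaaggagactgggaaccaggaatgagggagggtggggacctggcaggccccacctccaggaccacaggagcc
Adamts9: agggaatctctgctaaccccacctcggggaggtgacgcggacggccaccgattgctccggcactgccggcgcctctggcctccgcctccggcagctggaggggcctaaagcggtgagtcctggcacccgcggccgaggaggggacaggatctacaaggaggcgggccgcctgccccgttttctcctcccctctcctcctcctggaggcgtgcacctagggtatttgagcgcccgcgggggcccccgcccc
Col4a5: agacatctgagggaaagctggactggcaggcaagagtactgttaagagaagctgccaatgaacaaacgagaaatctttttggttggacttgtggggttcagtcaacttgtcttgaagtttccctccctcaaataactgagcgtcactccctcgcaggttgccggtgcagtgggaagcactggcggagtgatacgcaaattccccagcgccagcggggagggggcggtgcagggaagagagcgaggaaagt
Col4a6: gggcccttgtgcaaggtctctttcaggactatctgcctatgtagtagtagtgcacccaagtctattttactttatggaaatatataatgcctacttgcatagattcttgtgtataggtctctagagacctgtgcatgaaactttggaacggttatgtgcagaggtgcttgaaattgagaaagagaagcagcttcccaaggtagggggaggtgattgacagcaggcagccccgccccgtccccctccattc
Col6a1: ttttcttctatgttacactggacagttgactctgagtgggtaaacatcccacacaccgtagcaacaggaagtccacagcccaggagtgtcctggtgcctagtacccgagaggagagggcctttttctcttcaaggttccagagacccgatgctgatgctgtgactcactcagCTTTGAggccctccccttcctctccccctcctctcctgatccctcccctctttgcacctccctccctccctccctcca
Col13a1: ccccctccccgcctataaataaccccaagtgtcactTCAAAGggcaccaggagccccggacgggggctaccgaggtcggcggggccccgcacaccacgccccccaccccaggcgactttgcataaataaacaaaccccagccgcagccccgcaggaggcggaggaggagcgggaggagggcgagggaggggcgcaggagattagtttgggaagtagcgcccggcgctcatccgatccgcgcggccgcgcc
The windows are chr1:24177360-24177609, plus strand (the first of the *Col9a1* starts), chr10:77113706-77113955, minus strand (one of the *Col18a1* starts), chr6:92943535-92943784, minus strand (*Adamts9*), chrX:141475169-141475418, plus strand (*Col4a5*), chrX:141474077-141474326, minus strand (*Col4a6*), chr10:76726045-76726294, minus strand (*Col6a1*) and chr10:61979109-61979358, minus strand (*Col13a1*). The motif lay in 3 of the 21 windows (14.3%), those of *Col9a1*, *Col6a1* and *Col13a1*, and in 13.8% of the 32851 windows of the whole table, so the members held it about as often as promoters in general. *Col4a5* and *Col4a6*, which encode chains of type IV collagen, are transcribed away from each other on chromosome X, with 1342 bases between the starts. The *Adamts9* window holds 22 CG pairs and the *Col9a1* window holds 0.

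The libraries hold 18124772 to 28472412 reads over the genes. *Ctnna1* in α-catenin KO stood at 40.4% of the CTRL mean in low CHIR and 47.4% in high CHIR, and in QCKO *Cdh11* stood at 50.0% and 40.2%, with no overlap between libraries in either case. *Cdh2* (63.5% and 77.0%), *Cdh3* (127% and 104%) and *Cdh4* (95.2% and 105%) overlapped with CTRL in RNA. These RNA levels do not measure removal of the protein. By immunofluorescence the paper reports no detectable Cdh2 or Cdh11 protein after editing and removal of most Cdh3 and Cdh4 protein. It reports similar efficiencies when guides were combined. The tables hold no symbol for *Ctnnb1*, so its level is not given here. Of the progenitor markers, 4 of 6 had a symbol (*Six2*, *Cited1*, *Eya1* and *Osr1*), and their summed normalized count was 10332 to 14418 in the low CHIR libraries of CTRL and 951 to 1644 in its high CHIR libraries. In β-catenin KO that sum was 8581 to 16442 in low CHIR and 3879 to 7375 in high CHIR, and it was 795 to 1363 in α-catenin KO and QCKO in high CHIR. The summed level of the 4 of 6 markers of induced nephron cells with a symbol was 266 to 964 in CTRL, 358 to 1228 in α-catenin KO and QCKO and 291 to 2919 in β-catenin KO in low CHIR, and 8439 to 24038 in CTRL, 12110 to 19625 in α-catenin KO and QCKO and 1434 to 7491 in β-catenin KO in high CHIR, so that in β-catenin KO the conditions overlapped. Symbols were present for 1 of 10 markers of stroma (*Meis1*), 4 of 8 of ureteric epithelium, 1 of 7 of endothelium (*Tek*) and 0 of 5 of leukocytes, so other cell types could be checked only in part. *Meis1* stood at 1671 to 3220 in the low CHIR libraries and at 537 to 1094 in the high CHIR libraries of all genotypes. The summed ureteric markers stood at 279 to 851 in low CHIR over all genotypes, and in high CHIR at 841 to 1007 in CTRL, 1199 to 1988 in α-catenin KO, 1699 to 1859 in QCKO and 537 to 1027 in β-catenin KO. In CTRL *Tek* stood at 0 to 3.25 in low CHIR, and at 89.7 to 177 in high CHIR, against 92.7 to 383 in α-catenin KO and QCKO and 4.62 to 85.3 in β-catenin KO in high CHIR, and the part of these lists in the results below was not tested.

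Values below are normalized counts, which are reads divided by the size factor of the library, and they can be compared between libraries but not between genes of different length. In CTRL, 20 of the 30 members had a lower mean on the log2 scale in high than in low CHIR and 10 had a higher one, with a median log2 difference of −1.06 against −0.0084 over all genes. The libraries of both conditions did not overlap for 24 members, 8 higher and 16 lower, against 26% of all 16691 genes, but 23 of the members were picked for this difference, so the share carries no weight. The lowest in high CHIR were *Col9a1* (log2 difference −5.02), *Adamts15* (−2.97), *Itga4* (−2.30), *Col25a1* (−2.18) and *Itga9* (−2.12), and the highest were *Adamts9* (3.29), *Col18a1* (2.91), *Adamts19* (1.996), *Lama4* (1.87) and *Adamtsl1* (1.83). In these bulk libraries fewer cells of a kind and less RNA per cell cannot be told apart.

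**Figure D1:**
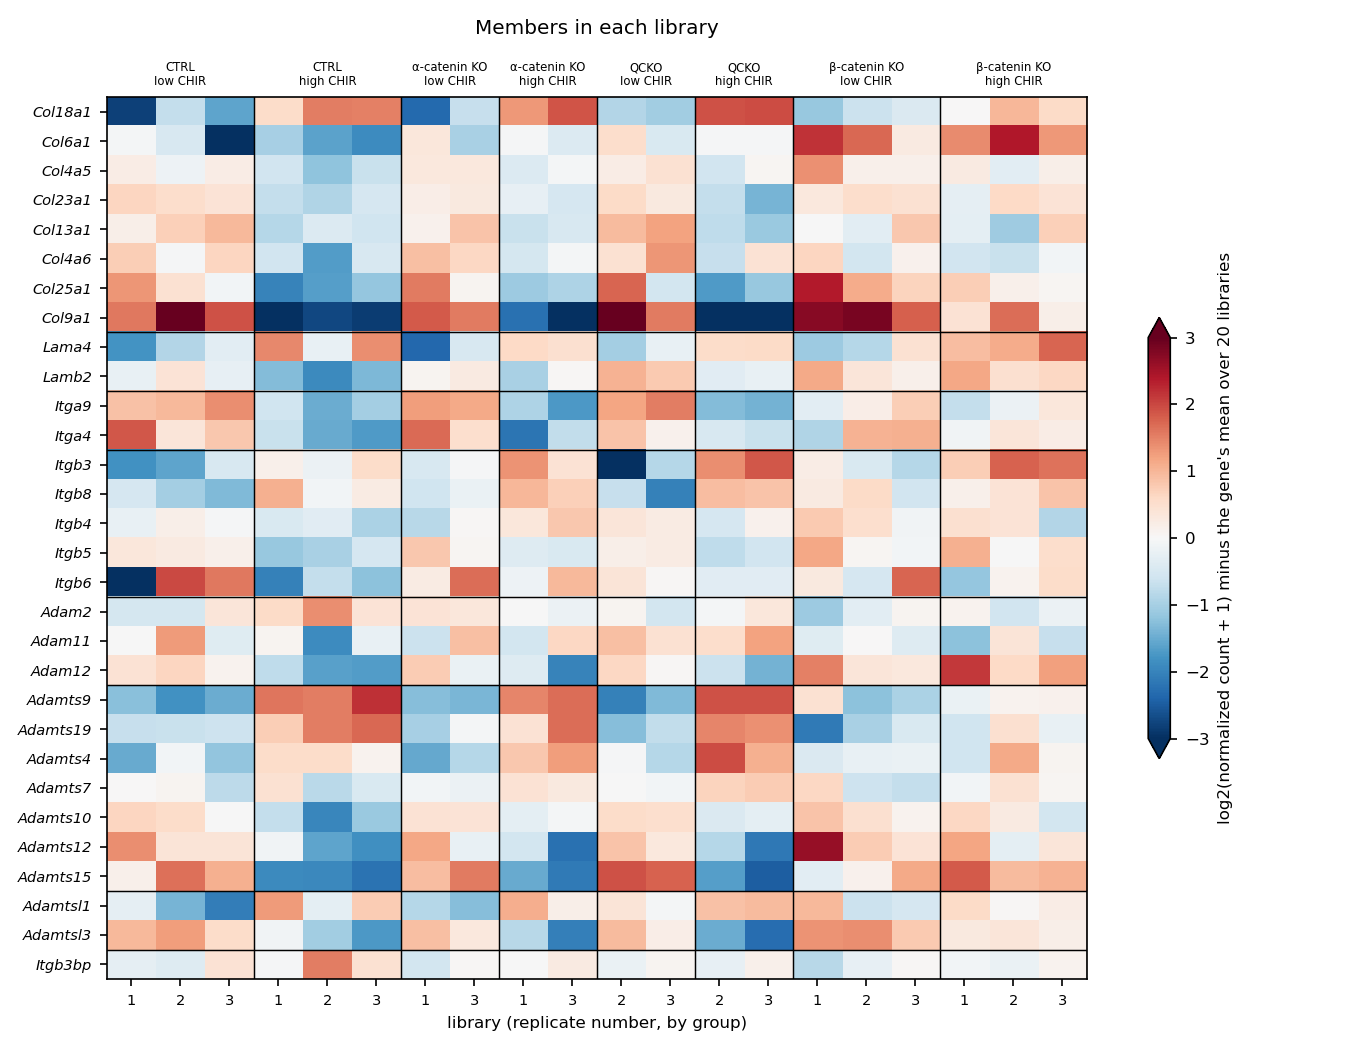
Heat map of the 30 members (rows, grouped by family) in the 20 libraries (columns, by group and replicate number). Colour is log2(normalized count + 1) minus the gene's mean over the 20 libraries, limited to ±3. *Col9a1* and *Adamts15* turn from red to blue between low and high CHIR in CTRL, α-catenin KO and QCKO but not in β-catenin KO, and *Adamts9* turns the other way.

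The 23 members of the CTRL table were chosen for a difference between CTRL libraries, so the response to CHIR was tested in the knockouts. The separation is not complete: the mean that sets the limit of 10, and the mean in the authors' tables, run over all 20 libraries, and the fit used here takes its error from the CTRL libraries too. A fit of only the groups compared is therefore given beside each count of members. In α-catenin KO, 7 of the 23 members changed between low and high CHIR: *Adamts4*, *Adamts9* and *Col18a1* rose, and *Adamts15*, *Col9a1*, *Itga4* and *Itga9* fell. Calls required a Benjamini-Hochberg adjusted p from limma under 0.05 together with an absolute log2 difference over 0.5. The 7 calls are 30.4% of these members, against 4.39% of all 16516 genes tested (2.4% higher and 1.99% lower) and 26.7% of the 2408 tested genes that the same CTRL table lists and that were therefore chosen in the same way. The members' share is close to the latter. Their median log2 difference was −0.63 against 0.012 over all genes, and 22 of 23 had no overlap between conditions, against 48.1% of all genes, with only 2 libraries on each side. With the title date as a replicate block 13 members were called, the same 7 and *Adam12*, *Adamts12*, *Adamts19*, *Adamtsl1*, *Adamtsl3* and *Col4a6* (adjusted p 0.00371 to 0.0483, limma), while the block also raised the share called over all genes, to 7.18%. With only the groups compared 6 members were called, against 3.46% of all genes. Leaving out the α-catenin KO low CHIR replicate 1 leaves a lone library in that group, and fewer genes were then called over all. *Adamts4*, *Col18a1* and *Itga4* were no longer called, at log2 differences of 1.89, 2.27 and −1.96.

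In QCKO, 11 of the 23 members changed. *Adamts19*, *Adamts4*, *Adamts9*, *Col18a1* and *Itgb8* rose, and *Adamts15*, *Adamtsl3*, *Col13a1*, *Col23a1*, *Col9a1* and *Itga9* fell. That is 47.8% of the members, against 4.93% of all genes (2.62% higher and 2.31% lower) and 29% of the genes of the CTRL table, and the median log2 difference was −1.02 against −0.0046 over all genes. All 23 members had no overlap between conditions, against 56.1% of all genes. Leaving out any of the 4 QCKO libraries, which leaves a lone library in its group, lowered the number of members called and the number over all genes. With a mean of at least 100 as the filter 5 members were called, since members under that mean then have no value, against 540 of 10824 genes. The block added *Adam12*, *Adamts12* and *Col4a6* (adjusted p 0.00153 to 0.0246, limma), against 7.74% of all genes. With only the groups compared 16 members were called, against 11.3% of all genes. For the alternative fits, here and in the other comparisons, the share among the genes of the CTRL table was not computed.

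In β-catenin KO, 0 of the 30 members passed the test between high and low CHIR, with limma as with edgeR and DESeq2. All 30 were tested, since none was listed through a comparison that includes β-catenin KO libraries, although these count in the mean that sets the limit of 10. The background is 0.018% (3 of 16691 genes) with limma, 0.018% with edgeR, 0.342% with DESeq2 and 0% with only the groups compared, so a count of 0 among 30 is what that background gives. At an unadjusted p under 0.05 (limma) there were 7 of the 30 members (*Lama4*, *Itgb3*, *Col18a1*, *Adamts19*, *Adamts15*, *Col9a1* and *Adamtsl3*) and 741 of the 16691 genes. The members' share was the larger, and the share among the genes of the CTRL table was not computed. The conditions did not overlap for 5 members (*Lama4*, *Itgb3*, *Col18a1*, *Col9a1* and *Adamtsl3*), against 9.35% of all genes. The median log2 difference was 0.17, with 16 members above 0 and 14 below, against 0.025 over all genes.

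The test of the difference itself compared the response to CHIR in β-catenin KO with the mean response in α-catenin KO and QCKO. The CTRL libraries are not in the contrast, but they add to its error estimate. Of the 23 members, 4 differed: *Adamts9* responded less upward, and *Adamts15*, *Col9a1* and *Itga9* less downward or not downward in β-catenin KO. That is 17.4%, against 1.01% of all genes (0.677% upward and 0.336% downward) and 6.54% of the genes of the CTRL table. With the replicate block 7 members differed, the same 4 with *Adam12* (log2 1.999, adjusted p = 0.00873), *Adamts4* (−1.60, 0.0258) and *Col18a1* (−1.73, 0.0107, limma), against 3.13% of all genes. With only the groups compared, which leaves the CTRL libraries out altogether, 3 members differed, against 0.798% of all genes, and *Col9a1* was lost (adjusted p = 0.0633, limma). At a single concentration, 9 of the 23 members differed between β-catenin KO and the mean of α-catenin KO and QCKO in high CHIR, 8 higher and 1 lower. That is 39.1%, against 5.76% of all genes (4.06% higher and 1.71% lower) and 24.3% of the genes of the CTRL table, and 13 of 23 had no overlap, against 23.2% of all genes. The block added *Adamts12*, which was higher, and *Adamts19*, *Adamts4* and *Col18a1*, which were lower (adjusted p 0.000794 to 0.0161, limma), against 10.8% of all genes, and with only the groups compared 6 members were called, against 3.98%. The calls were less one-sided in some other fits, with 9 higher and 4 lower with the block and 9 and 3 with DESeq2. They were 6 and 2 with quantile normalization, and 4 and 2 with only the groups compared. With edgeR and with either pseudocount they stayed at 8 and 1. With no filter, or with a log2 threshold of 1, they were 7 and 1, and with a mean of at least 100 they were 5 and 1. DESeq2 also called more genes over all than the main fit, and quantile normalization about as many. Of the members added by the block, *Col18a1* also passed with only the groups compared (adjusted p = 0.0362, limma) and with DESeq2 (0.0482), *Adamts12* with DESeq2 (0.0251), *Adamts19* with quantile normalization (0.0387, limma) and DESeq2 (0.0266), and *Adamts4* without the β-catenin KO high CHIR replicate 2 (0.0288, limma). Without the β-catenin KO high CHIR replicate 3 the count was 5, with 629 of 16685 genes called in place of 962. In low CHIR 0 of 23 differed, against 0.144% of all genes by limma, 0.623% by edgeR and 0% with only the groups compared. At an unadjusted p under 0.05 (limma) there were 4 of the 23 members and 1731 of the 16691 genes, a larger share of the members. DESeq2 called 2 there, against 2.16% of all genes, *Adamts9* (log2 1.12, adjusted p = 0.0465) and *Itga9* (−0.997, adjusted p = 0.0427), and these were also the 2 members without overlap, against 14.6% of all genes. The tests in high CHIR and of the response share libraries and are not independent of each other. The summed progenitor markers given above also stood higher, and those of induced nephron cells and ureteric epithelium lower, in β-catenin KO in high CHIR than in the other knockouts, and their part in these differences was not tested.

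**Figure D2:**
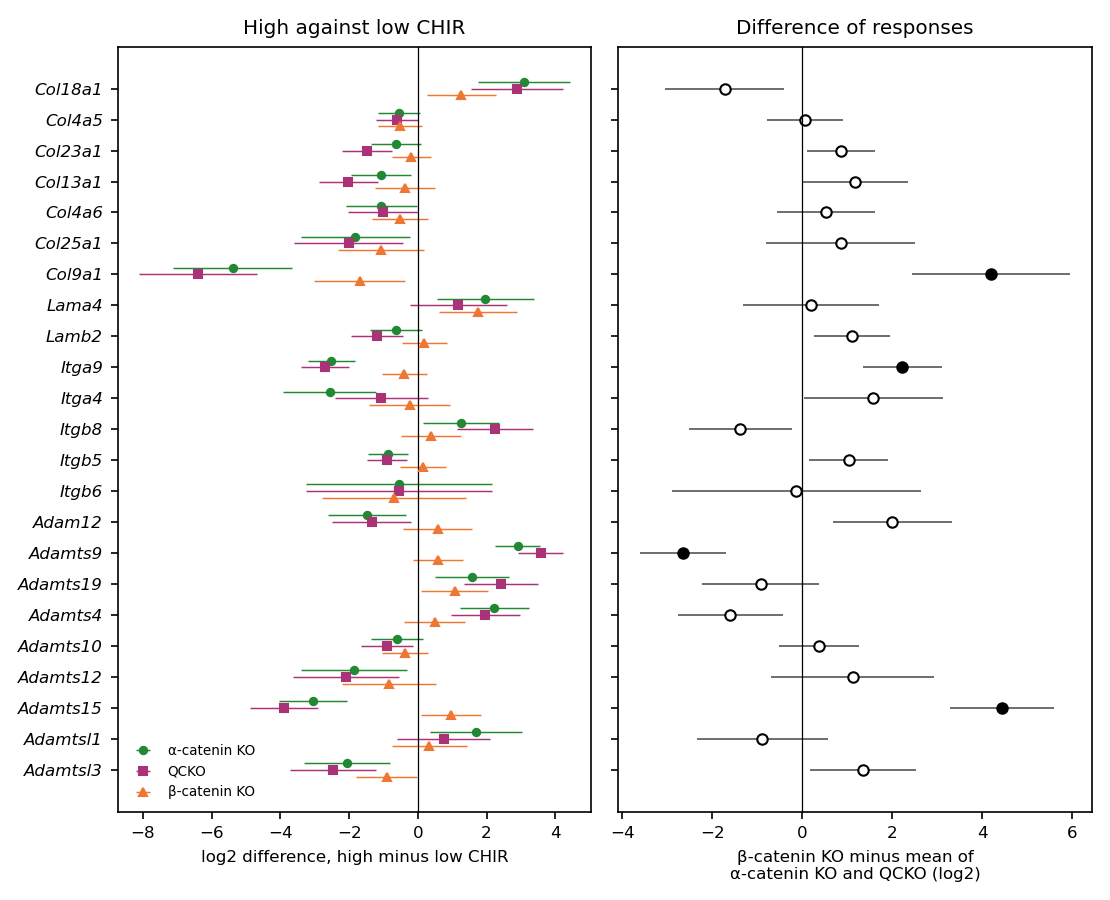
Left, log2 difference between high and low CHIR (x axis) for the 23 members tested (rows) in α-catenin KO (green circles), QCKO (purple squares) and β-catenin KO (orange triangles). Right, the response in β-catenin KO minus the mean response in α-catenin KO and QCKO, with filled circles for the 4 members that passed the test (*Col9a1*, *Itga9*, *Adamts9* and *Adamts15*); bars are 95% intervals from limma.

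Among the collagens, *Col18a1* had the highest and *Col9a1* the lowest log2 difference between high and low CHIR in CTRL. Collagen XVIII, encoded by *Col18a1*, is a basement membrane collagen whose end is released as endostatin. In low CHIR, *Col18a1* had normalized counts of 50.0, 213 and 116 for CTRL, 69.7 and 219.8 for α-catenin KO, 193 and 172 for QCKO and 160.1, 224 and 262 for β-catenin KO. In high CHIR, *Col18a1* had 519, 1021 and 1014 for CTRL, 868 and 1308 for α-catenin KO, 1335 and 1377 for QCKO and 357, 700.5 and 527 for β-catenin KO. Every high CHIR library of CTRL, α-catenin KO and QCKO lay above every low CHIR library, and in β-catenin KO the same held within its own libraries, at a smaller distance. The log2 difference was 3.09 (standard error 0.61, adjusted p = 0.011, limma) in α-catenin KO, 2.89 (standard error 0.61, adjusted p = 0.0146, limma) in QCKO and 1.27 (standard error 0.47, adjusted p = 0.964, limma) in β-catenin KO. The call in α-catenin KO was lost without its low CHIR replicate 1 or its high CHIR replicate 3 (adjusted p up to 0.157), and that in QCKO without any one of its 4 libraries (up to 0.109, limma). The β-catenin KO response minus the mean response of the other knockouts was −1.73, which did not pass the test without the block (95% interval −3.05 to −0.40, adjusted p = 0.322, limma).

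*Col9a1* encodes a chain of collagen IX, a fibril-associated collagen best known from cartilage. In low CHIR, *Col9a1* had 104, 276 and 132 for CTRL, 126 and 103 for α-catenin KO, 288 and 103 for QCKO and 232, 254 and 120.1 for β-catenin KO. In high CHIR, *Col9a1* had 3.40, 4.27 and 3.92 for CTRL, 6.44 and 0 for α-catenin KO, 1.21 and 0.94 for QCKO and 46.2, 112 and 39.0 for β-catenin KO. It was thus close to the limit of detection in high CHIR wherever β-catenin was not targeted, while all 3 β-catenin KO libraries lay well above those. They lay below every β-catenin KO library in low CHIR, and the highest of them (112) stood above the lowest low CHIR libraries of the other genotypes. QCKO held 439 reads in low CHIR and 2 in high CHIR, a ratio of 190.2 after scaling (95% interval from 52.3 to 1575, exact binomial, counting error only), and α-catenin KO held 267 and 5 reads, a ratio of 40.3 (17.1 to 125). The fitted log2 differences, which depend on the pseudocount at so few reads, were −5.39 (standard error 0.79, adjusted p = 0.00175, limma) in α-catenin KO, −6.39 (standard error 0.79, adjusted p = 0.000405, limma) in QCKO and −1.69 (standard error 0.63, adjusted p = 0.964, limma) in β-catenin KO. In high CHIR, *Col9a1* was higher in β-catenin KO than in the mean of the other knockouts by a log2 value of 4.65 (standard error 0.59, adjusted p = 0.000164, limma), and in low CHIR the difference was 0.45 (−0.79 to 1.70). The response differed by a log2 value of 4.20 (standard error 0.83, adjusted p = 0.0216, limma), and this call was lost when only the groups compared were fitted and when the β-catenin KO low CHIR replicate 3, the α-catenin KO low CHIR replicate 1, the QCKO low CHIR replicate 2 or the QCKO high CHIR replicate 3 was left out (highest adjusted p 0.0761).

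The type IV collagen genes *Col4a5* and *Col4a6* were lower in high CHIR in CTRL, with log2 differences of −0.91 and −1.36. In low CHIR, *Col4a6* had 784, 458 and 731 for CTRL, 880.1 and 721 for α-catenin KO, 638 and 1174 for QCKO and 733, 319 and 516 for β-catenin KO. In high CHIR, *Col4a6* had 316, 146 and 334 for CTRL, 322 and 453 for α-catenin KO, 287 and 637 for QCKO and 314, 294 and 444 for β-catenin KO. Low and high CHIR did not overlap in CTRL, α-catenin KO and QCKO, in QCKO by a narrow margin. They overlapped in β-catenin KO, although each same-dated pair was lower in high CHIR. In low CHIR, *Col4a5* had 411, 316 and 409 for CTRL, 437 and 436 for α-catenin KO, 410.3 and 480.1 for QCKO and 916, 393 and 392 for β-catenin KO. In high CHIR, *Col4a5* had 237, 152 and 219 for CTRL, 263 and 337 for α-catenin KO, 234 and 363 for QCKO and 426, 283 and 398 for β-catenin KO. For *Col4a5* the conditions likewise overlapped only in β-catenin KO, and the first β-catenin KO library in low CHIR stood far above all others. Neither gene passed the test in a knockout: the log2 differences of *Col4a5* were −0.55, −0.60 and −0.52 in the α-catenin, quadruple cadherin and β-catenin knockouts, and those of *Col4a6* were −1.06, −1.02 and −0.52 (adjusted p 0.315 to 0.999, limma). With the block *Col4a6* passed in α-catenin KO and QCKO. The difference of responses was 0.06 for *Col4a5* (−0.78 to 0.90) and 0.52 for *Col4a6* (−0.57 to 1.61).

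The transmembrane collagens *Col13a1*, *Col23a1* and *Col25a1* were all lower in high CHIR in CTRL, without overlap. *Col13a1* fell in QCKO, with a log2 difference of −2.02 (standard error 0.40, adjusted p = 0.01, limma), and stood at −1.07 in α-catenin KO (adjusted p = 0.206, limma). The *Col13a1* call was lost without the QCKO low CHIR replicate 2 or 3 or the high CHIR replicate 3 (adjusted p up to 0.108, limma). *Col23a1* fell in QCKO, with a log2 difference of −1.49 (standard error 0.34, adjusted p = 0.021, limma), a call lost without the same libraries (up to 0.239), with no filter on low values (0.0503) and with only the groups compared (0.0513, limma). In high CHIR *Col23a1* was higher in β-catenin KO than in the other knockouts, with a log2 difference of 0.96 (standard error 0.25, adjusted p = 0.0334, limma), and 9 of 16 alternatives took that call away (up to 0.150), among them quantile normalization and leaving out the β-catenin KO replicate 2 or 3, either α-catenin KO library or the QCKO replicate 3. *Col25a1* did not pass, at −1.82 in α-catenin KO and −2.01 in QCKO (adjusted p = 0.251 and 0.187, limma), while in QCKO it passed with DESeq2 (adjusted p = 0.0368) and without the low CHIR replicate 3 (0.0494, limma). These 3 genes were named after their values were seen.

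*Col6a1*, a chain of the microfibril-forming collagen VI, was highest in β-catenin KO in both CHIR concentrations. In low CHIR, *Col6a1* had 120.5, 89.9 and 12.7 for CTRL, 158 and 62.8 for α-catenin KO, 181 and 90.6 for QCKO and 565, 416 and 151 for β-catenin KO. In high CHIR, *Col6a1* had 62.4, 40.6 and 32.9 for CTRL, 122 and 93.8 for α-catenin KO, 122 and 123 for QCKO and 334, 669 and 309.6 for β-catenin KO. All 3 β-catenin KO libraries in high CHIR lay above every other high CHIR library, and in low CHIR the β-catenin KO libraries overlapped only with the highest α-catenin KO and QCKO ones. *Col6a1* was listed through QCKO against CTRL in high CHIR, so only the comparison within β-catenin KO was tested, where high against low CHIR gave 0.32 (standard error 0.67, adjusted p = 0.999, limma). The log2 difference between β-catenin KO and CTRL was 3.20 in high and 2.63 in low CHIR, as a description, since the CTRL libraries took part in the choice.

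**Figure D3:**
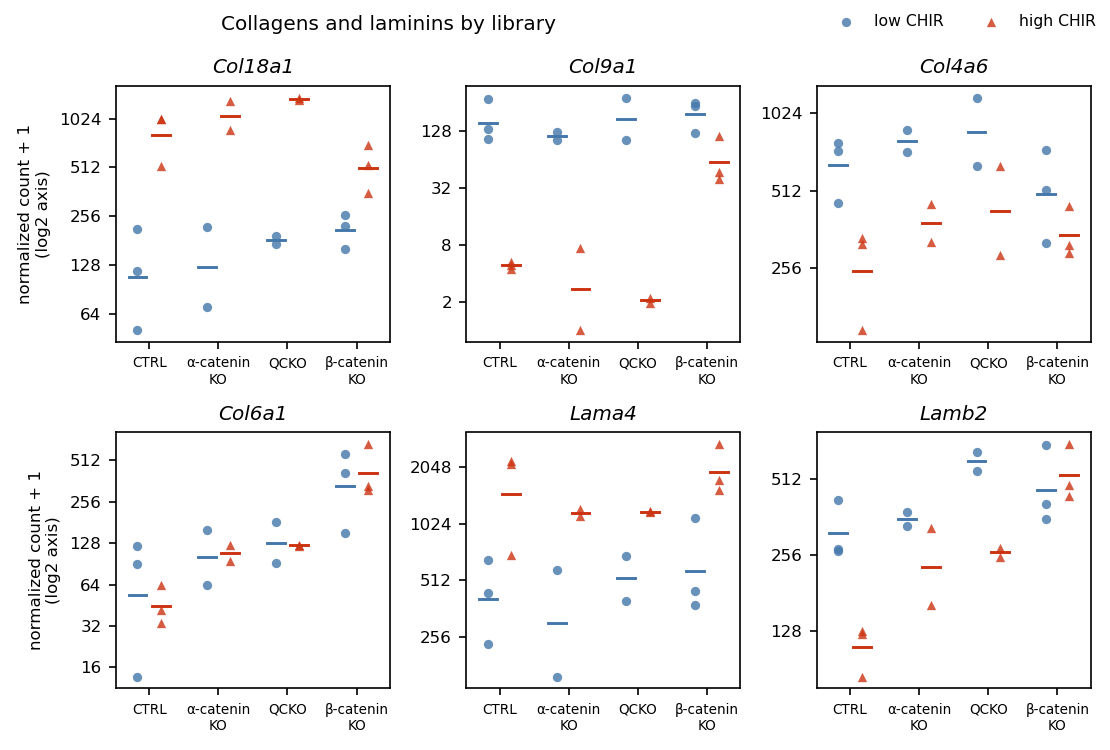
Normalized count + 1 (y axis, log2 scale) of 4 collagens and 2 laminins in each library, by knockout (x axis), with low CHIR as blue circles and high CHIR as red triangles; each line is the group mean of the log2 values. *Col9a1* in high CHIR lies between 39.0 and 112 in β-catenin KO and at 6.44 or less elsewhere, and *Lama4* is higher in high CHIR in all 4 genotypes.

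The 2 laminin genes moved in opposite directions in CTRL. *Lama4* encodes the α4 chain, found in vessels and mesenchyme, and *Lamb2* the β2 chain, a part of the mature glomerular basement membrane. In low CHIR, *Lama4* had 233, 435 and 653 for CTRL, 157 and 579 for α-catenin KO, 398 and 692 for QCKO and 377, 446 and 1103 for β-catenin KO. In high CHIR, *Lama4* had 2195, 693 and 2123 for CTRL, 1226 and 1121 for α-catenin KO, 1175 and 1199.8 for QCKO and 1538, 1738 and 2709.6 for β-catenin KO. It was higher in every high CHIR library than in every low CHIR library of the same genotype, β-catenin KO included, and the second CTRL library in high CHIR lay far below the other two. No knockout passed the test as fitted: the log2 difference was 1.96 (standard error 0.65, adjusted p = 0.142, limma) in α-catenin KO, 1.18 (standard error 0.65, adjusted p = 0.475, limma) in QCKO and 1.76 (standard error 0.54, adjusted p = 0.637, limma) in β-catenin KO. The *Lama4* difference in QCKO passed with only the groups compared (adjusted p = 0.0227, limma), and that in α-catenin KO passed without its low CHIR replicate 3 (log2 2.90, adjusted p = 0.0420, limma). The response in β-catenin KO differed from the mean of the others by a log2 value of 0.19, with a 95% interval of −1.32 to 1.70.

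In low CHIR, *Lamb2* had 268, 421 and 265 for CTRL, 332 and 379 for α-catenin KO, 653 and 547 for QCKO and 694, 405 and 352 for β-catenin KO. In high CHIR, *Lamb2* had 127, 83.3 and 123 for CTRL, 161 and 325 for α-catenin KO, 249.9 and 271 for QCKO and 700.1, 437 and 483 for β-catenin KO. High CHIR libraries lay below low CHIR ones in CTRL, α-catenin KO and QCKO, and the conditions overlapped in β-catenin KO. In high CHIR all β-catenin KO libraries lay above the α-catenin KO and QCKO libraries, a difference of 1.11 (standard error 0.28, adjusted p = 0.0291, limma), against 0.01 (−0.60 to 0.61) in low CHIR. That call was lost under 6 of 17 alternatives, namely with only the groups compared or without the β-catenin KO replicate 1 or 3, the α-catenin KO replicate 1 or either QCKO library in high CHIR (adjusted p up to 0.171, limma). The CHIR difference in α-catenin KO (−0.63, adjusted p = 0.459) and QCKO (−1.20, adjusted p = 0.0784) and the difference of responses (1.10, adjusted p = 0.327, limma) did not pass. The difference in QCKO did pass with only the groups compared (adjusted p = 0.00516, limma) and with DESeq2 (0.0179).

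Of the integrin receptors, *Itga9* gave the clearest result. Its product pairs with the β1 subunit and binds tenascin C and osteopontin. In low CHIR, *Itga9* had 959, 1013 and 1369 for CTRL, 1225 and 1141 for α-catenin KO, 1175 and 1497 for QCKO and 416, 598 and 867 for β-catenin KO. In high CHIR, *Itga9* had 341, 183 and 256 for CTRL, 272 and 156 for α-catenin KO, 210.1 and 194 for QCKO and 317, 461 and 653 for β-catenin KO. In low CHIR every β-catenin KO library lay below every library of the other genotypes, and in high CHIR every one lay above the α-catenin KO and QCKO libraries and overlapped with CTRL. *Itga9* fell in α-catenin KO, with a log2 difference of −2.51 (standard error 0.32, adjusted p = 0.000617, limma), and in QCKO, with one of −2.71 (standard error 0.32, adjusted p = 0.000288, limma), while β-catenin KO gave −0.39 (standard error 0.31, adjusted p = 0.999, limma). In each same-dated β-catenin KO pair the high CHIR library was the lower, and with the date block 0 of the 30 members were called within β-catenin KO. The responses differed by a log2 value of 2.22 (standard error 0.41, adjusted p = 0.0155, limma), in each of the 24 alternatives (highest adjusted p 0.0490). The β-catenin KO level was higher than in the other knockouts in high CHIR by a log2 difference of 1.16 (standard error 0.29, adjusted p = 0.0266, limma). This was lost under 6 of 17 alternatives (up to 0.132), namely with only the groups compared or without the β-catenin KO replicate 2 or 3, the α-catenin KO replicate 3 or either QCKO library. In low CHIR the difference was −1.06 (standard error 0.29, adjusted p = 0.188, limma).

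*Itga4*, whose product binds fibronectin and VCAM1, fell in α-catenin KO, with a log2 difference of −2.56 (standard error 0.62, adjusted p = 0.0355, limma), and gave −1.06 (standard error 0.62, adjusted p = 0.509, limma) in QCKO. The α-catenin KO libraries had 168 and 72.1 in low and 10.3 and 30.3 in high CHIR, and the call was lost with edgeR (adjusted p = 0.0504), with only the groups compared, and without the low or the high CHIR replicate 1 (up to 0.363). The β-catenin KO libraries had 26.9, 105 and 107 in low and 47.4, 65.4 and 59.8 in high CHIR, which overlap. *Itga4* was named after its values were seen.

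*Itgb5*, the partner of αv in a vitronectin receptor, was lower in high CHIR in CTRL. In low CHIR, *Itgb5* had 635, 608 and 559.9 for CTRL, 876 and 522 for α-catenin KO, 569 and 598 for QCKO and 1119, 519 and 468 for β-catenin KO. In high CHIR, *Itgb5* had 227, 253 and 352 for CTRL, 380.0 and 363 for α-catenin KO, 295 and 337 for QCKO and 1054, 498 and 716 for β-catenin KO. High CHIR lay below low CHIR without overlap in CTRL, α-catenin KO and QCKO, and not in β-catenin KO, whose lowest high CHIR library stood above the highest of the other knockouts. The difference in high CHIR was 1.07 (standard error 0.29, adjusted p = 0.0398, limma) and was lost under 8 of 17 alternatives (adjusted p up to 0.240), namely with quantile normalization, with only the groups compared or without the β-catenin KO replicate 1 or 3 or any α-catenin KO or QCKO library. The responses in α-catenin KO (−0.86, adjusted p = 0.109), QCKO (−0.89, adjusted p = 0.0902) and β-catenin KO (0.15, adjusted p = 0.999, limma) did not pass. In QCKO *Itgb5* passed with only the groups compared (adjusted p = 0.0126, limma) and with DESeq2 (0.0401), and in α-catenin KO with DESeq2 (0.0294) and without the low CHIR replicate 3 (0.0425, limma).

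The β6 and β8 subunits also pair with αv, and both receptors activate latent TGFβ. *Itgb8* rose in QCKO, with a log2 difference of 2.24 (standard error 0.51, adjusted p = 0.0208, limma), from 23.4 and 8.68 to 73.6 and 70.1, a call lost without the low CHIR replicate 3 or either high CHIR library (up to 0.237). It gave 1.26 in α-catenin KO (adjusted p = 0.248, limma). *Itgb6* varied widely between libraries of a group: the CTRL libraries in low CHIR had 1.79, 88.8 and 66.7, and no comparison of it passed. The integrin genes that came in through a knockout comparison were low. *Itgb3*, the β chain of the platelet fibrinogen receptor and of the vitronectin receptor, had 4.46, 5.42 and 12.7 for CTRL, 12.9 and 17.8 for α-catenin KO, 0.87 and 9.64 for QCKO and 21.5, 12.99 and 9.61 for β-catenin KO in low CHIR. In high CHIR, *Itgb3* had 20.4, 16.0 and 27.4 for CTRL, 47.7 and 25.2 for α-catenin KO, 49.5 and 69.2 for QCKO and 31.2, 64.3 and 59.0 for β-catenin KO. Within β-catenin KO it gave 1.75 (standard error 0.57, adjusted p = 0.797, limma) between high and low CHIR, without overlap. *Itgb4*, the partner of α6 in hemidesmosomes, lay between 15.7 and 55.5 in all libraries and gave −0.39 within β-catenin KO. *Itgb8*, *Itgb6* and *Itgb4* were named after their values were seen.

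The secreted ADAMTS proteases changed in both directions. *Adamts9* and *Adamts15* both encode enzymes that cleave versican, a large matrix proteoglycan. In low CHIR, *Adamts9* had 92.8, 62.8 and 78.3 for CTRL, 90.3 and 84.9 for α-catenin KO, 53.8 and 87.7 for QCKO and 304, 94.0 and 114 for β-catenin KO. In high CHIR, *Adamts9* had 679, 646 and 1017 for CTRL, 613 and 716 for α-catenin KO, 834 and 835 for QCKO and 193, 237 and 243 for β-catenin KO. Outside β-catenin KO all high CHIR libraries lay several times above all low CHIR libraries, whereas in β-catenin KO the conditions overlapped, with every low CHIR library above and every high CHIR library below those of the other genotypes. *Adamts9* rose in α-catenin KO, with a log2 difference of 2.91 (standard error 0.30, adjusted p = 0.000109, limma), and in QCKO, with one of 3.58 (standard error 0.30, adjusted p = 2.04e-05, limma), and gave 0.59 (standard error 0.34, adjusted p = 0.999, limma) in β-catenin KO. It was lower in β-catenin KO than in the other knockouts in high CHIR, at −1.73 (standard error 0.32, adjusted p = 0.00391, limma), with 0.93 (standard error 0.32, adjusted p = 0.322, limma) in low CHIR. The responses differed by a log2 value of −2.66 (standard error 0.45, adjusted p = 0.00875, limma), in each of the 24 alternatives (highest adjusted p 0.0306).

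In low CHIR, *Adamts15* had 121, 341 and 229 for CTRL, 206 and 319 for α-catenin KO, 408 and 369 for QCKO and 87.0, 119 and 241 for β-catenin KO. In high CHIR, *Adamts15* had 28.4, 27.8 and 22.7 for CTRL, 37.4 and 24.2 for α-catenin KO, 33.8 and 18.7 for QCKO and 392, 209 and 225 for β-catenin KO. All high CHIR libraries of CTRL, α-catenin KO and QCKO stood at 37.4 or less and all β-catenin KO ones at 209 or more, while in low CHIR the β-catenin KO libraries overlapped with the others. *Adamts15* fell in α-catenin KO, with a log2 difference of −3.05 (standard error 0.46, adjusted p = 0.00196, limma), and in QCKO, with one of −3.89 (standard error 0.46, adjusted p = 0.000286, limma), and gave 0.96 (standard error 0.41, adjusted p = 0.999, limma) in β-catenin KO. In high CHIR it was higher in β-catenin KO by a log2 value of 3.22 (standard error 0.39, adjusted p = 0.000109, limma), with −1.21 (standard error 0.39, adjusted p = 0.276, limma) in low CHIR. Its difference of responses, 4.43 (standard error 0.55, adjusted p = 0.00056, limma), passed in each of the 24 alternatives (highest adjusted p 0.00294).

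*Adamts4* encodes an aggrecanase. In low CHIR, *Adamts4* had 155, 418 and 194 for CTRL, 151 and 243 for α-catenin KO, 429 and 244 for QCKO and 327, 382 and 385 for β-catenin KO. In high CHIR, *Adamts4* had 653, 648 and 476 for CTRL, 769 and 1056 for α-catenin KO, 1720.5 and 927 for QCKO and 292, 969.8 and 471 for β-catenin KO. High CHIR lay above low CHIR in CTRL, α-catenin KO and QCKO, while the β-catenin KO libraries in high CHIR were spread on both sides of those in low CHIR. *Adamts4* rose in α-catenin KO, with a log2 difference of 2.23 (standard error 0.46, adjusted p = 0.0148, limma), and in QCKO, with one of 1.96 (standard error 0.46, adjusted p = 0.0265, limma), calls that were lost without the α-catenin KO low CHIR replicate 1 or either high CHIR library (adjusted p up to 0.172) and without either QCKO low CHIR library or the high CHIR replicate 2 (up to 0.272, limma). The difference of responses was −1.60 (standard error 0.55, adjusted p = 0.273, limma) and passed with the block.

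*Adamts12*, whose product cleaves cartilage oligomeric matrix protein, was lower in high CHIR in CTRL. In low CHIR, *Adamts12* had 629, 316 and 315 for CTRL, 537 and 205 for α-catenin KO, 436 and 301 for QCKO and 1470.2, 405 and 321 for β-catenin KO. In high CHIR, *Adamts12* had 225, 79.0 and 66.6 for CTRL, 165 and 50.4 for α-catenin KO, 133 and 53.3 for QCKO and 545, 195 and 307 for β-catenin KO. The first β-catenin KO library in low CHIR stood far above all others, and replicate 1 was the highest of each group that has one. The differences in α-catenin KO (−1.85, adjusted p = 0.222), QCKO (−2.09, adjusted p = 0.144) and between β-catenin KO and the other knockouts in high CHIR (1.85, adjusted p = 0.0857, limma) did not pass, and all 3 passed with the date block (adjusted p 0.00371, 0.00153 and 0.000794). The difference in QCKO also passed with only the groups compared (adjusted p = 0.0209, limma).

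*Adamts10* encodes a protein of fibrillin microfibrils. In low CHIR, *Adamts10* had 529, 489 and 334 for CTRL, 452 and 445 for α-catenin KO, 494 and 473 for QCKO and 610.4, 472 and 359.5 for β-catenin KO. In high CHIR, *Adamts10* had 205, 85.4 and 155 for CTRL, 273 and 323 for α-catenin KO, 248 and 273 for QCKO and 516, 402 and 229 for β-catenin KO. It was lower in high CHIR without overlap in CTRL, α-catenin KO and QCKO. The conditions overlapped in β-catenin KO, although each same-dated pair was lower in high CHIR. The differences in α-catenin KO (−0.59) and QCKO (−0.89) did not pass (adjusted p = 0.498 and 0.225, limma). With only the groups compared that in QCKO passed (adjusted p = 0.0141, limma). *Adamts19* rose in QCKO, with a log2 difference of 2.42 (standard error 0.50, adjusted p = 0.0118, limma), from 10.4 and 15.4 to 74.9 and 70.1, a call lost without the low CHIR replicate 2 or either high CHIR library (up to 0.124), and in α-catenin KO it passed with the block (adjusted p = 0.0284, limma) and with DESeq2 (0.0383). *Adamts7*, listed only through a knockout comparison, lay between 38.5 and 118 and gave 0.39 within β-catenin KO. *Adamts19* and *Adamts7* were named after their values were seen.

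The ADAMTS-like proteins have the accessory domains of the family without the protease. *Adamtsl3* fell in QCKO, with a log2 difference of −2.46 (standard error 0.58, adjusted p = 0.0261, limma), from 96.3 and 56.9 to 16.9 and 9.35, a call lost without any one of these 4 libraries (up to 0.245). It gave −2.05 in α-catenin KO (adjusted p = 0.0703, limma), where it passed with the block (0.00609), with all 20 libraries in the fit (0.0367, limma) and with DESeq2 (0.0144). In high CHIR the β-catenin KO libraries had 60.1, 63.2 and 55.5, above both other knockouts by a log2 value of 1.93 (standard error 0.39, adjusted p = 0.00727, limma). *Adamtsl1* was higher in high CHIR in CTRL and passed in neither knockout as fitted (1.70 in α-catenin KO and 0.75 in QCKO, adjusted p = 0.194 and 0.724, limma). With the block *Adamtsl1* passed in α-catenin KO (adjusted p = 0.0483, limma). Both were named after their values were seen.

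Of the membrane-anchored ADAM proteins, *Adam12* was the one tested in all comparisons. In low CHIR, *Adam12* had 289, 333 and 229.7 for CTRL, 365 and 185 for α-catenin KO, 326 and 218 for QCKO and 610.4, 273 and 266 for β-catenin KO. In high CHIR, *Adam12* had 125, 68.4 and 66.6 for CTRL, 162 and 52.4 for α-catenin KO, 136 and 79.5 for QCKO and 925, 321 and 503 for β-catenin KO. High CHIR lay below low CHIR without overlap in CTRL, α-catenin KO and QCKO, and all β-catenin KO libraries in high CHIR lay above the other high CHIR libraries. The difference between β-catenin KO and the other knockouts was 2.42 (standard error 0.44, adjusted p = 0.0038, limma) in high CHIR and 0.43 (standard error 0.44, adjusted p = 0.793, limma) in low CHIR. The responses in α-catenin KO (−1.48, adjusted p = 0.176) and QCKO (−1.35, adjusted p = 0.223) and their difference from β-catenin KO (1.999, adjusted p = 0.201, limma) did not pass, and all 3 passed with the block (adjusted p 0.0161, 0.0246 and 0.00873). *Adam12* also passed in QCKO with only the groups compared (adjusted p = 0.0400, limma) and in α-catenin KO without its high CHIR replicate 1 (0.0478, limma). *Adam11*, which encodes a protein without protease activity, had 76.8, 188 and 60.3 for CTRL, 49.04 and 146 for α-catenin KO, 145 and 107 for QCKO and 60.2, 78.0 and 59.3 for β-catenin KO in low CHIR. In high CHIR, *Adam11* had 81.6, 20.3 and 65.8 for CTRL, 52.8 and 120.0 for α-catenin KO, 112 and 179.5 for QCKO and 32.3, 102 and 47.7 for β-catenin KO. Low and high CHIR overlapped in every genotype, and within β-catenin KO it gave −0.27 (standard error 0.58, adjusted p = 0.999, limma). *Adam2*, known from sperm and named after its values were seen, lay between 12.9 and 76.9 and gave 0.22 within β-catenin KO.

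**Figure D4:**
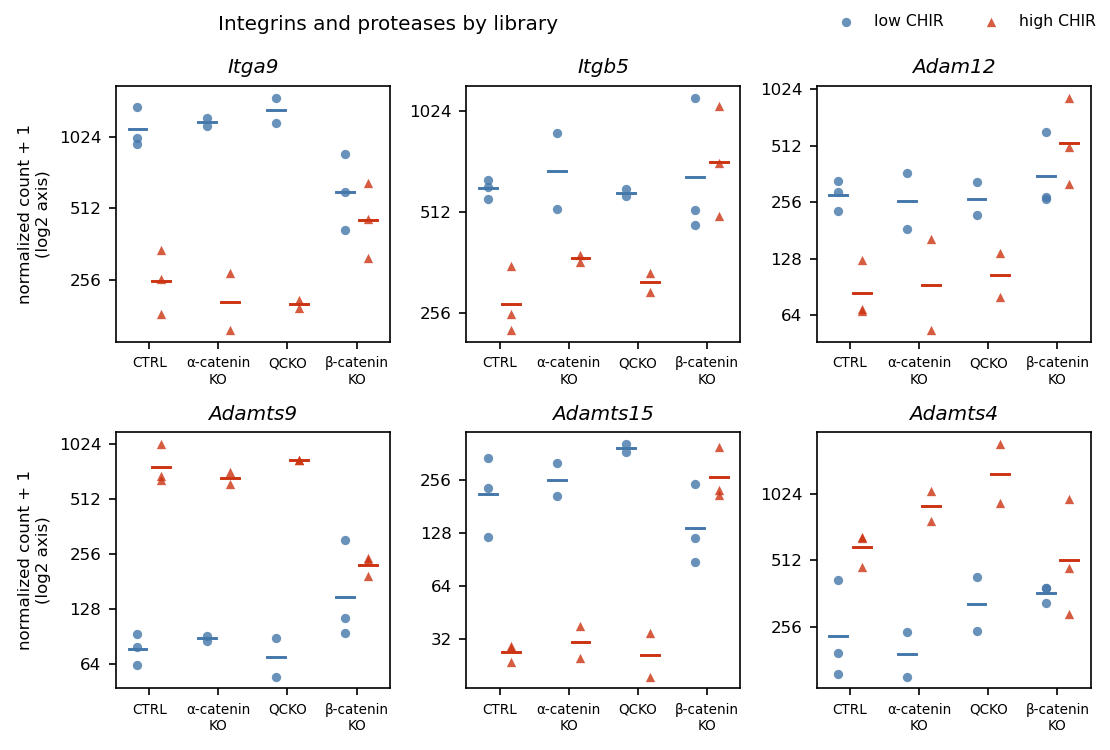
Normalized count + 1 (y axis, log2 scale) of 2 integrins and 4 proteases in each library, by knockout (x axis), with low CHIR as blue circles and high CHIR as red triangles; each line is the group mean of the log2 values. In high CHIR the β-catenin KO libraries of *Adamts15* (209 to 392) lie above all others (37.4 or less), and those of *Adamts9* (193 to 243) lie below all others (613 or more).

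*Itgb3bp* encodes a protein of the centromere and no matrix or adhesion protein. In low CHIR, *Itgb3bp* had 163, 152 and 268 for CTRL, 134 and 203 for α-catenin KO, 173 and 209 for QCKO and 111, 166 and 203 for β-catenin KO. In high CHIR, *Itgb3bp* had 193, 577 and 273 for CTRL, 196 and 239 for α-catenin KO, 168 and 219.8 for QCKO and 187, 172 and 213 for β-catenin KO. The second CTRL library in high CHIR stood far above the other libraries, and within β-catenin KO the gene gave 0.29 (standard error 0.35, adjusted p = 0.999, limma).

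Against CTRL the members can only be described. In high CHIR the β-catenin KO libraries did not overlap with CTRL for 16 of the 30 members, 13 higher and 3 lower, against 27% of all genes, and the median log2 difference was 0.86 against 0.016. α-catenin KO did not overlap with CTRL for 11 members (10 higher, 1 lower, against 16% of all genes) and QCKO for 12 (10 higher, 2 lower, against 26.5%), with medians of 0.36 and 0.33. In low CHIR the counts were 3 for α-catenin KO, 5 for QCKO and 3 for β-catenin KO, against 13.1%, 17% and 10.7%. These comparisons share the CTRL libraries. The members were chosen on CTRL libraries, and 9 of them were listed for QCKO and 4 for α-catenin KO against CTRL in high CHIR itself, so these shares carry no weight.

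Of 66 other matrix and adhesion genes (structural proteins, matrix metalloproteases, collagen-modifying enzymes, syndecans and adhesion adaptors), 23 had a symbol and 18 of these were in the CTRL table and could be tested. In α-catenin KO 3 rose with CHIR and 11 fell, and in QCKO 1 rose and 12 fell, with median log2 differences of −1.16 and −1.39, where the shares called were 4.39% and 4.93% of all genes and 26.7% and 29% of the genes of the CTRL table. *Mmp9*, a gelatinase, rose in both knockouts (log2 difference 5.14, adjusted p = 0.00126, in α-catenin KO and 4.91, adjusted p = 0.00136, in QCKO) and was the only one of the 18 called in β-catenin KO (3.84, adjusted p = 0.0251, limma). In high CHIR, 7 of the 18 were higher in β-catenin KO than in the other knockouts and 0 were lower: *Tnc*, *Nid2*, *Sparc*, *Mmp16*, *P4ha3*, *Pcolce* and *Sdc4*, against 5.76% of all genes and 24.3% of the genes of the CTRL table called in either direction. *Tnc*, which encodes tenascin C, a ligand of the integrin with the α9 subunit, had a difference of responses of 3.27 (adjusted p = 0.0176), and *Nid2*, which encodes nidogen 2, a linker of laminin and type IV collagen, had 3.02 (adjusted p = 0.0487, limma). The other genes with a different response were *Pcolce*, an enhancer of procollagen processing (1.03, adjusted p = 0.0351), and *Sdc4*, a syndecan (1.64, adjusted p = 0.0195, limma). In all, 4 of the 18 had a different response, against 1.01% of all genes and 6.54% of the genes of the CTRL table. The calls of these partner genes come from the main fits alone and were not checked under the alternatives.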

How the data were processed

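Bulk RNA-seq libraries were made from sorted NPCs in 8 groups (20 libraries). The signal values that the authors deposited are gene counts divided by 1 size factor per library. The reads recovered from them were whole for 100% of the values in every library (tolerance 0.02 reads), which says less for the 2 libraries whose size factor is close to 1. The submitters' processing notes name bcl2fastq, STAR, Subread, featureCounts, Salmon and DESeq2, and the builds GRCm38, GRCh38 and mm10, with no role or order. The deposited comparison tables hold log2 ratios and p-values, of which none was used. Gene symbols and identifiers were taken from them. In 1 table a line of captions names another knockout than its title and library columns, and that table lists no member.

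Differences were fitted on log2(normalized count + 1) with limma 3.58.1 (trended eBayes, R 4.3.3) over all genes with a mean of at least 10, with Benjamini-Hochberg adjustment over all genes tested, so fold changes of genes with few reads are understated. The thresholds for a call were 0.05 for the adjusted p and 0.5 for the absolute log2 difference. The responses in α-catenin KO and QCKO came from a fit of the 14 libraries without β-catenin KO, and all other comparisons from a fit of the 20 libraries. Contrasts on which a member was chosen are given without a test. The CTRL libraries, on which 23 members were chosen, enter the error estimate of every test except those of the fits of only the groups compared.

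Members, lists and tests were chosen with earlier results of these data known. By rule, values in every library are given for up to 3 members of each family with the largest log2 difference each way in CTRL (mean of at least 100), up to 3 each way among the members called in each other comparison that includes β-catenin KO, the 3 members listed only through a knockout comparison with the largest difference there, and a fixed list of basement membrane and induction genes, of which *Col4a5*, *Col4a6* and *Col18a1* are members. Other members and partner genes were named after their values were seen. Replicate numbers pair libraries by the date in the sample titles. Deviations of same-dated low and high CHIR libraries from their group means correlated at 0.0474 to 0.721 across genes. Alternatives were edgeR 4.0.16 and DESeq2 1.42.0 on the recovered reads, other filters, pseudocounts (0.25 and 5) and thresholds, quantile normalization, fits of only the groups compared, the date as a block and leaving out each library. The libraries held 18124772 to 28472412 reads, and a level of 3 reads or fewer was taken as the limit of detection. Intervals on reads cover counting error only.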

Additional observations from a re-analysis of the deposited data

Results flagged for a closer look

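The responses to CHIR were compared by an interaction term in limma, and 4 of the 23 members tested responded differently in β-catenin KO than in the mean of α-catenin KO and QCKO. The share called was 1.01% of all genes and 6.54% of the genes of the CTRL table. The call of *Col9a1* was lost with only the groups compared (adjusted p = 0.0633, limma). The difference of the log2 responses was 4.43 for *Adamts15*, 4.20 for *Col9a1*, 2.22 for *Itga9* and −2.66 for *Adamts9*. In α-catenin KO and QCKO the responses were −3.05 and −3.89 for *Adamts15*, −5.39 and −6.39 for *Col9a1*, −2.51 and −2.71 for *Itga9*, and 2.91 and 3.58 for *Adamts9*. In β-catenin KO they were 0.96, −1.69, −0.39 and 0.59 in the same order, and none of these passed the test on its own. For 3 of these members the log2 difference from the other knockouts had opposite signs in low and in high CHIR, at −1.21 and 3.22 for *Adamts15*, −1.06 and 1.16 for *Itga9* and 0.93 and −1.73 for *Adamts9*, although none of the differences in low CHIR passed with limma (adjusted p 0.188 to 0.322). For *Col9a1* both were positive, at 0.45 and 4.65.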

How the results depend on the processing

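No member that was called reversed under an alternative, and of the calls recomputed under the alternatives 439 passed and 68 did not. With the title date as a replicate block 13 members were called in α-catenin KO in place of 7, while the share over all genes rose from 4.39% to 7.18%. The block gave 7 differences of response in place of 4, with a share over all genes of 3.13% in place of 1.01%, and it took no call away. With a mean of at least 100 as the filter 5 were called in QCKO in place of 11, because members under that mean then have no value. DESeq2 called 2 members between β-catenin KO and the other knockouts in low CHIR, where limma and edgeR called 0. Leaving out 1 library at a time gave 4 to 9 calls in α-catenin KO, 5 to 6 in QCKO, 5 to 8 between β-catenin KO and the other knockouts in high CHIR, and 3 to 4 differences of response. In groups of 2 that leaves a lone library, which is assumed to vary like the other groups. In each of these fits with a lone library, fewer genes were also called over all genes than in the main fit. A lower count there therefore does not single out the members. The count within β-catenin KO was 0 under every alternative run. *Adamts9*, *Adamts15*, *Col9a1* and *Itga9* passed in α-catenin KO and in QCKO under every alternative run in which they had a value. The number of libraries limits the precision, and *Col9a1* in high CHIR rests on 5 reads or fewer per library outside β-catenin KO. Where a call was lost, the cause was not tested.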
